A study of Mus musculus with 24 samples.

Results

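The enzymes and partner proteins of prostaglandin and leukotriene synthesis were followed across the series. They were chosen by gene symbol, as the rows Pla2g4a, Pla2g7, Ptgs1, Ptgs2, Ptges, Ptgis, Alox5, Alox5ap, Alox15 and Ltc4s of both count tables, which makes 10 of 54658 symbols. RNA was sequenced from peritoneal cells of C57BL/6 mice with thioglycollate (TGC) peritonitis and from hearts and lungs of C57BL/6 mice with sepsis after cecal ligation and puncture (CLP). The comparison asked how β-nicotinamide mononucleotide (β-NMN), a precursor of NAD, altered RNA levels relative to saline. All mice were males of 7 to 12 weeks, and β-NMN was injected into the peritoneum at 185 mg/kg per day, the last dose 24 h before sacrifice. Mice with TGC peritonitis had daily doses over 3 days, whereas CLP mice were dosed straight after surgery and their organs were taken 24 h later, so tissue, model and dosing differ together.

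The vehicle groups received 0.9% NaCl in place of β-NMN and underwent the same peritonitis or surgery. Peritonitis was raised with 1 mL of 4% TGC medium, and the lavage cells of 6 vehicle and 6 β-NMN mice were plated and exposed to E. coli for 6 h before RNA was taken. Heart and lung pieces of 10 mg came from 3 mice given vehicle and 3 given β-NMN, and each mouse gave both organs. The peritoneal cells were a plated lavage of mixed cells, and no unstimulated cells and no sham-operated mice were analysed here, so every level below is that of an inflamed tissue.

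Eicosanoids are lipid mediators made from arachidonic acid, which cytosolic phospholipase A2 cuts from membranes. Cyclooxygenases turn it into an unstable intermediate that terminal synthases convert to prostaglandin E2, prostacyclin and others, while 5-lipoxygenase and its membrane partner lead to the leukotrienes. In macrophages exposed to bacteria, the inducible cyclooxygenase and the microsomal prostaglandin E synthase are known to be induced together, and prostaglandin E2 is a mediator of fever, pain and vascular leak.

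Total counts ranged from 31.1 to 112 M reads in peritoneal libraries, from 27.3 to 68.5 M reads in hearts and from 8.92 to 28.4 M reads in lungs. The 12 peritoneal libraries fell into 5 above 70 M reads (3 vehicle and 2 β-NMN) and 7 below (3 vehicle and 4 β-NMN). The defining markers were present as labelled: the macrophage list summed to 7001 to 13323 CPM (counts per M counts of the scaled library) in peritoneal cells, the cardiomyocyte list to 32707 to 53835 CPM in hearts and the lung epithelial list to 58969 to 104439 CPM in lungs. Vehicle mouse 2 stood apart in both organs. Its genes deviated from those of the other libraries by an SD of 0.99 in the heart and 1.57 in the lung on the log2 scale, against 0.39 to 0.60 for the other CLP libraries, so values that depend on this mouse are given with and without it.

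The promoters of Ptgs2 and Ptges are shown first, because these enzymes act in sequence on the route to prostaglandin E2 and both were lower after β-NMN without overlap between groups in peritoneal cells and hearts. Pla2g4a met the same condition and its windows are not shown. Of the 10 members, 7 had an entry among the RefSeq promoters of GRCm38.p6, each running from 250 bases before the start site to 50 after it, and Ptgis, Alox5ap and Alox15 had none. Capitals mark every match on either strand to the TATA box TATAAA, the E-box CACGTG, the cyclic AMP response core TGACG, the AP-1 site TGANTCA, the C/EBP site TTNNGCAA, the NF-κB core (GGG and CC around any 5 bases) or the interferon-activated site TTCNNNGAA.
Ptgs2, chr1:150099781-150100080, plus strand: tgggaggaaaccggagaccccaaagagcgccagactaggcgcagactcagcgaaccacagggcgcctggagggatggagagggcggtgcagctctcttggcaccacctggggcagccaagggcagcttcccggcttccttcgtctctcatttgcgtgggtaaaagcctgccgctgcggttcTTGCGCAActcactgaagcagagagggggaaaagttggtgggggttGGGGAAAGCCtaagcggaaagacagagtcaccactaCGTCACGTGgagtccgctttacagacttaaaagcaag
Ptges, chr2:30903248-30903547, minus strand: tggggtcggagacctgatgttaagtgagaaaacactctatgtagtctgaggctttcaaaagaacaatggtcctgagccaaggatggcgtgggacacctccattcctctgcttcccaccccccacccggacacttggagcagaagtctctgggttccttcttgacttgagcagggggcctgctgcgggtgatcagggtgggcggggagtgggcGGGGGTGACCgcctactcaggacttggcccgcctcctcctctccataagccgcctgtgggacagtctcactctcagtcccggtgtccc

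In the Ptgs2 window, the C/EBP letters lay at bases -69 to -62 from the start site and the NF-κB core at -23 to -14. The cyclic AMP core on the other strand, at 14 to 18, overlapped the E-box at 17 to 22. The Ptges window held the NF-κB core alone, at -38 to -29. Of 32851 promoters of the same length, the NF-κB core occurred in 50.8%, the cyclic AMP core in 20.8%, TATAAA in 13.6%, the C/EBP site in 10.8%, the interferon-activated site in 8.3%, the AP-1 site in 7.81% and the E-box in 7.15%. Among the 7 members with an entry, the E-box, the cyclic AMP core and the C/EBP letters were found in Ptgs2 alone, and the NF-κB core also in Ptgs1 and Alox5. A match describes letters and was not tested as a binding site.

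In stimulated peritoneal cells, Ptgs2 and Ptges, the most abundant members per length, were lower after β-NMN, as was Pla2g4a. All 10 members passed the filter on low counts. By edgeR's quasi-likelihood test at an adjusted p below 0.05, 7 members were lower, 1 was higher and 2 did not pass. Across the 14985 genes tested, 27.9% were lower and 23.7% higher. The median log2 fold change was -0.73 over the members and -0.02 over all genes tested. Vehicle and β-NMN libraries did not overlap for 4 members, all lower (Pla2g4a, Ptgs2, Ptges and Ltc4s), where 14.0% of all genes tested were lower and 12.6% higher without overlap. Because lavage cells were sequenced in bulk, fewer cells of a type and less RNA per cell cannot be told apart.

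**Figure D1:**
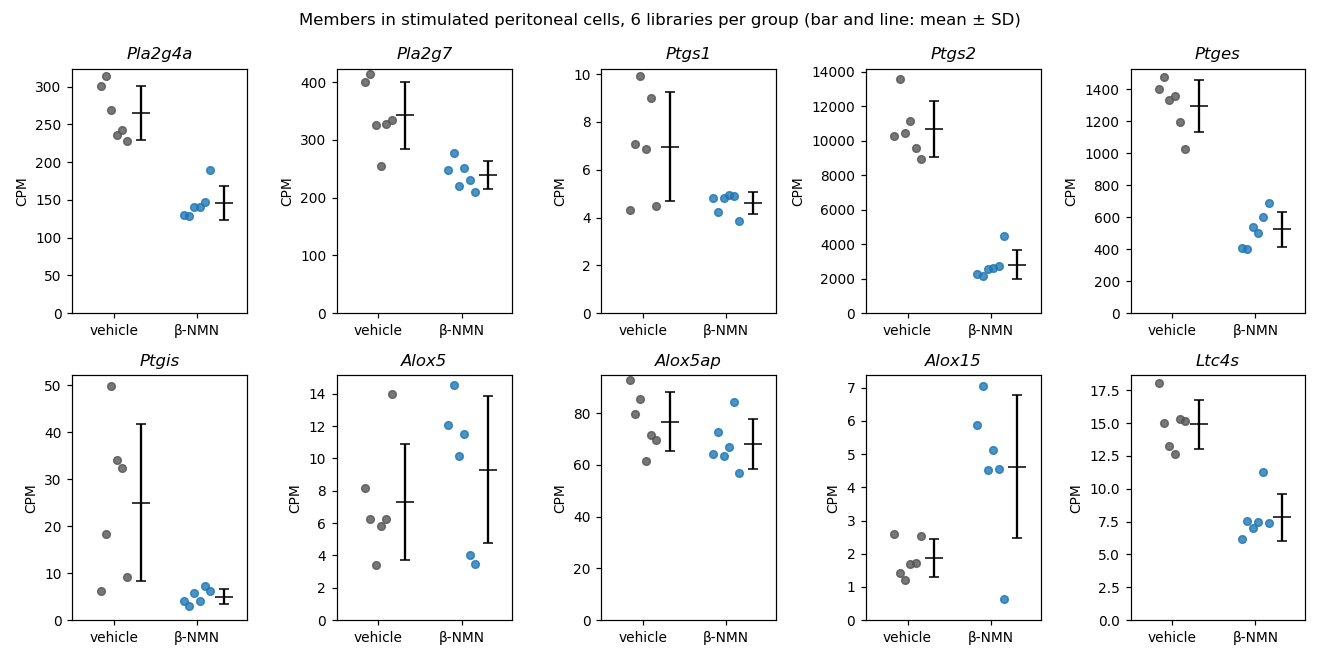
Levels of the 10 members in CPM in each of 12 peritoneal libraries (points), with the mean ± SD of the 6 libraries of a group beside them and the axis starting at 0. All 6 β-NMN libraries lie below all 6 vehicle libraries for Pla2g4a, Ptgs2, Ptges and Ltc4s, and 5 of 6 lie above them for Alox15.

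Between genes, levels were compared as RPKM, which is CPM divided by the length of the gene's exons in kilobases. In vehicle libraries the order of mean RPKM was Ptgs2 (2330), Ptges (330.1), Pla2g7 (118), Alox5ap (54.1), Pla2g4a (41.5), Ltc4s (14.7), Ptgis (9.73), Ptgs1 (1.79), Alox5 (1.78) and Alox15 (0.758). Ptgs2, Ptges and Pla2g7 each lay above the next gene in every vehicle library. The ranges of Alox5ap (43.3 to 65.4 RPKM) and Pla2g4a (35.7 to 49.2 RPKM) overlapped, those of Ltc4s and Ptgis did too, and Ptgs1 and Alox5 could not be ordered. In every vehicle library the inducible cyclooxygenase was more abundant than the constitutive one, and Alox5ap more abundant than its partner Alox5.

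Of the phospholipases, Pla2g4a, the cytosolic enzyme that releases arachidonic acid (GRCm38 chromosome 1, 149829618 to 149961290, minus strand), had 228, 256 and 314 CPM as the lowest, median and highest of vehicle libraries. In β-NMN libraries these values were 129, 141 and 190 CPM. It was 1.81-fold lower after β-NMN (log2 fold change -0.86, SE 0.11, edgeR adjusted p = 2.31e-05), with no overlap between groups. Pla2g7, the secreted platelet-activating factor acetylhydrolase (chromosome 17, 43568098 to 43612201, plus strand), had 254, 331 and 413 CPM in vehicle and 210, 239 and 277 CPM in β-NMN libraries. The groups overlapped slightly, and it was 1.43-fold lower (log2 fold change -0.52, SE 0.11, edgeR adjusted p = 0.00167). Within the 5 libraries above 70 M reads the log2 fold change of Pla2g7 was -0.15 (edgeR adjusted p = 0.523), against -0.71 (edgeR adjusted p = 0.00318) within the 7 below.

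The cyclooxygenases differed most in level. Ptgs2, the inducible enzyme (chromosome 1, 150100031 to 150108227, plus strand), had 8941, 10362 and 13606 CPM as the lowest, median and highest of vehicle libraries. After β-NMN the values were 2166, 2601 and 4490 CPM, and every β-NMN library lay below every vehicle library. Ptgs2 took 0.903 to 1.31% of all counts of a vehicle library and 0.217 to 0.399% of a β-NMN library. It was 3.80-fold lower after β-NMN (log2 fold change -1.92, SE 0.17, edgeR adjusted p = 7.17e-07).

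Ptgs1, the constitutive cyclooxygenase (chromosome 2, 36230426 to 36252272, plus strand), had 4.33, 6.98 and 9.93 CPM in vehicle and 3.84, 4.82 and 4.96 CPM in β-NMN libraries. The β-NMN libraries lay within a narrow band that the 2 lowest vehicle libraries shared. Ptgs1 was 1.51-fold lower (log2 fold change -0.60, SE 0.19, edgeR adjusted p = 0.0159). The call did not hold without vehicle library 3, with a log2 fold change of -0.43 and an edgeR adjusted p of 0.0546.

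Both terminal prostaglandin synthases were lower. Ptges, the microsomal prostaglandin E synthase (chromosome 2, 30889471 to 30929863, minus strand), had 1027, 1345 and 1475 CPM in vehicle and 403, 520.3 and 689 CPM in β-NMN libraries. It was 2.48-fold lower with no overlap (log2 fold change -1.31, SE 0.14, edgeR adjusted p = 2.95e-06). Its promoter window, printed above, held 1 of the searched motifs, and that of Ptgs2 held 4.

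Ptgis, the prostacyclin synthase of vessel walls and stromal cells (chromosome 2, 167191805 to 167240604, minus strand), had 6.28, 25.4 and 49.7 CPM in vehicle and 2.98, 4.93 and 7.19 CPM in β-NMN libraries. It was 5.01-fold lower (log2 fold change -2.33, SE 0.42, edgeR adjusted p = 0.00037), the largest fold among the members, and its vehicle libraries spanned the widest relative range. Markers of fibroblasts and smooth muscle moved with it. Their list of 6 summed to 55.4 to 608 CPM in vehicle and 14.8 to 52.0 CPM in β-NMN libraries, 5 of its 6 genes were lower by the same test, and Col1a1, its first marker, had a log2 fold change of -3.28. Ptgis and the list put the 6 vehicle libraries in the same order, and likewise the 6 β-NMN libraries. Ptgs1 and the list put 3 of 6 vehicle and 1 of 6 β-NMN libraries in the same place. Mesothelial markers were also lower (3 of 4 tested, summing to 2.39 to 14.7 CPM in vehicle and 1.43 to 4.93 CPM in β-NMN libraries for the list of 5). Endothelial markers went both ways, with 2 lower and 1 higher of 4 tested, and their list of 6 summed to 112 to 181 and 152 to 259 CPM. The part of these cells in the fall of Ptgis was not tested.

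**Figure D2:**
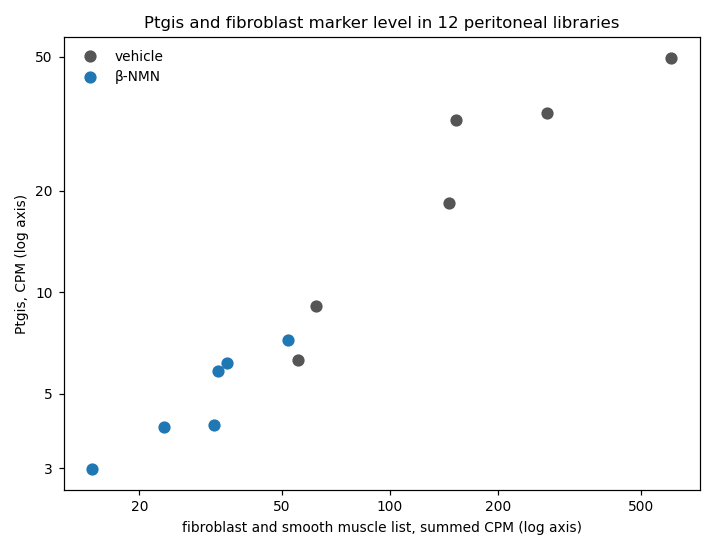
Ptgis (CPM, vertical log axis) against the summed CPM of 6 fibroblast and smooth muscle markers (horizontal log axis) in 6 vehicle and 6 β-NMN peritoneal libraries, 1 point per library. Both values are highest in the same vehicle library (49.7 CPM of Ptgis and 608 CPM of the markers) and lowest in the same β-NMN library (2.98 and 14.8 CPM).

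The lipoxygenase branch did not move as a block. Alox5, the 5-lipoxygenase that starts leukotriene synthesis (chromosome 6, 116410077 to 116461178, minus strand), had 3.39, 6.25 and 14.0 CPM in vehicle and 3.44, 10.8 and 14.6 CPM in β-NMN libraries. The groups covered nearly the same range, and the log2 fold change of 0.35 had a 95% interval of -0.36 to 1.06 (edgeR adjusted p = 0.44). Alox5ap, the membrane protein that presents arachidonic acid to it (chromosome 5, 149264767 to 149288153, plus strand), had 61.5, 75.6 and 92.8 CPM in vehicle and 56.8, 65.6 and 84.5 CPM in β-NMN libraries. Its log2 fold change of -0.17 had a 95% interval of -0.40 to 0.05 (edgeR adjusted p = 0.221), and it was 0.09 within the 5 libraries above 70 M reads.

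Alox15, a lipoxygenase of eosinophils and resident peritoneal macrophages (chromosome 11, 70344152 to 70352031, minus strand), was the single member that rose. Vehicle libraries had 1.22, 1.70 and 2.59 CPM and β-NMN libraries 0.652, 4.84 and 7.05 CPM. In 5 of 6 β-NMN libraries it lay above every vehicle library, and in β-NMN library 6 it lay below all of them. The fold was 2.51 (log2 fold change 1.33, SE 0.38, edgeR adjusted p = 0.00865), while an exact two-sided permutation test gave p = 0.0823. Without β-NMN library 6 the log2 fold change was 1.58, and within the 7 libraries below 70 M reads it was 1.14 with an edgeR adjusted p of 0.168.

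Markers of cells that carry Alox15 moved as well. The list of 7 resident peritoneal macrophage markers summed to 34.1 to 51.4 CPM in vehicle and 47.8 to 129 CPM in β-NMN libraries, with 3 genes higher and 2 lower, among them its first marker Gata6 at a log2 fold change of -1.43. The list of 6 eosinophil markers summed to 12.4 to 48.9 CPM in vehicle and 18.8 to 75.2 CPM in β-NMN libraries, with 1 gene higher, while Epx, Prg2 and Ear1, which define eosinophil granules, did not exceed 0.358 CPM in any library. In both groups Alox5 and the eosinophil list were highest in the same library and lowest in the same library. Ordered by level, they put 4 of 6 libraries of each group in the same place. Alox15 and the eosinophil list did so for 1 of 6 vehicle and 2 of 6 β-NMN libraries. For Alox15 and the resident macrophage list it was 1 of 6 in each group. The part of either cell type in the levels of Alox15 and Alox5 was not tested.

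Ltc4s, which joins glutathione to leukotriene A4 (chromosome 11, 50236461 to 50238616, minus strand), had 12.7, 15.1 and 18.02 CPM in vehicle and 6.18, 7.43 and 11.3 CPM in β-NMN libraries. It was 1.90-fold lower with no overlap (log2 fold change -0.93, SE 0.14, edgeR adjusted p = 6.47e-05). Mast cell markers, a list of 7 whose cells are known for leukotriene C4, summed to 129 to 328 CPM in vehicle and 91.7 to 167 CPM in β-NMN libraries, with 2 genes lower. Kit, also carried by other cells, held most of that fall (means of 65.7 and 9.48 CPM). Ms4a2, the other gene called lower, had means of 0.529 and 0.199 CPM (log2 fold change -1.48). The mast cell proteases Cpa3 (log2 fold change 0.33), Mcpt4 (-0.29), Tpsb2 (-0.48) and Cma1 (-0.33) were not called, and neither was Fcer1a (-0.10). Ordered by level, Ltc4s and the mast cell list put 1 of 6 vehicle and 0 of 6 β-NMN libraries in the same place. The part of mast cells in the fall of Ltc4s was not tested.

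Exact two-sided permutation tests of single members cannot give a p below 0.00216 with 6 libraries against 6, and Ptgs2, Ptges, Pla2g4a and Ltc4s reached that value. After adjustment over the 30 member tests of the 3 tissues, these 4 had p = 0.0162 by the exact test, and Ptgis and Pla2g7 had p = 0.0216. The call for Ptgs1 was not repeated by the exact test, with an adjusted p of 0.176. Neutrophil markers, whose cells express Ptgs2 and Alox5 pathway genes, fell in the same comparison: 5 of 7 were lower and 1 (Retnlg) was higher, and the list summed to 491 to 998 CPM in vehicle and 334 to 467 CPM in β-NMN libraries. Csf3r held most of that sum (means of 554 and 370 CPM, log2 fold change -0.58). S100a8 had means of 87.4 and 2.78 CPM (-5.00) and S100a9 of 76.8 and 2.02 CPM (-5.31). Ly6g (-4.77) and Cxcr2 (-4.10) fell from lower levels, and Mmp8 (0.12) was not called. Ordered by level, Ptgs2 and the neutrophil list put 0 of 6 vehicle and 3 of 6 β-NMN libraries in the same place. All 5 T cell markers were lower (4.95 to 18.005 CPM in vehicle and 2.07 to 4.35 CPM in β-NMN libraries), as were 2 of 4 B cell markers (30.6 to 149 and 20.6 to 81.6 CPM). The macrophage list summed to 7001 to 13323 CPM in vehicle and 10659 to 12238 CPM in β-NMN libraries, with Cd68, Mertk and Lyz2 higher and Cd14 lower (log2 fold change -2.92). The lung epithelial list, with 1 gene higher and 1 lower, summed to 6.81 to 13.5 and 16.4 to 17.7 CPM. Hopx held most of that sum (means of 8.33 and 15.8 CPM). Ager was lower (0.989 and 0.310 CPM), and Sftpc, Sftpb and Sftpa1 did not exceed 0.218 CPM in any library. The part of these lists in the results was not tested.

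The other genes of the eicosanoid pathway were a list of 62, covering further phospholipases, lipid remodelling enzymes, synthases, breakdown enzymes, transporters and receptors. In peritoneal cells 48 of them passed the filter, of which 21 were lower, 10 were higher and 17 did not pass the test. Over all genes tested, 27.9% were lower and 23.7% higher. The median log2 fold change of the 48 was -0.31, against -0.02 over all genes. Of the 16 receptors on the list 11 were tested, of which 6 were lower, 1 was higher and 4 did not pass, against the same shares of all genes. Fpr2, a receptor for formyl peptides and lipoxin A4, had a mean of 211 CPM in vehicle and 16.8 CPM in β-NMN libraries and was 12.6-fold lower (log2 fold change -3.66, SE 0.26).

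Among prostaglandin E2 receptors, Ptger2 had a mean of 21.9 CPM in vehicle and 4.88 CPM in β-NMN libraries (log2 fold change -2.17, SE 0.18). For Ptger4 the means were 22.6 and 9.40 CPM (log2 fold change -1.27, SE 0.19). Both are the receptors that raise cyclic AMP. The fall was not limited to them. Ptger3 was 6.67-fold lower (log2 fold change -2.74, SE 0.58, edgeR adjusted p = 0.00125), with overlap between groups. Ptger1 was not called (log2 fold change 0.26, SE 0.39). Ltb4r1, the high-affinity leukotriene B4 receptor, had means of 5.50 and 1.35 CPM (log2 fold change -2.01, SE 0.23). Cysltr1, a receptor for leukotrienes C4 and D4, was higher, with means of 3.73 and 6.14 CPM (log2 fold change 0.72, SE 0.14).

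Enzymes of arachidonic acid release and remodelling split. Lpcat2, which makes platelet-activating factor in activated macrophages, had means of 80.2 and 14.6 CPM and was 5.48-fold lower (log2 fold change -2.45, SE 0.19). Acsl4, which activates arachidonic acid for storage in membranes, was 2.18-fold lower, and the calcium-independent phospholipase Pla2g6 was 2.12-fold lower. In contrast, the lysosomal phospholipase Pla2g15 had means of 28.1 and 97.7 CPM and was 3.48-fold higher (log2 fold change 1.80, SE 0.17). Lpcat3 was 1.30-fold higher and Pla2g2e, at a mean below 1 CPM in both groups, 2.33-fold higher.

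The export pumps Abcc4 and Abcc1, which carry prostaglandins and leukotriene C4 out of cells, were 2.703-fold and 2.16-fold lower. Ptges2, a further prostaglandin E synthase, was 1.90-fold lower, while the cytosolic synthase Ptges3 had a log2 fold change of -0.00030 (SE 0.07, edgeR adjusted p = 0.998), and Akr1b3, an aldose reductase with prostaglandin F synthase activity, was 1.76-fold higher. Ptgr1 and Ptgr2, which break down prostaglandins and leukotriene B4, were 1.55-fold and 1.27-fold higher. On the leukotriene side, Mgst3, Mgst2 and Lta4h were 1.67-fold, 1.43-fold and 1.27-fold higher, and Ggt1, which trims leukotriene C4, was 5.19-fold lower from a mean of 1.31 CPM. Mapkapk2, a kinase known to act on Ptgs2 RNA stability and on 5-lipoxygenase, was 1.47-fold lower from a mean of 1399 CPM.

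**Figure D3:**
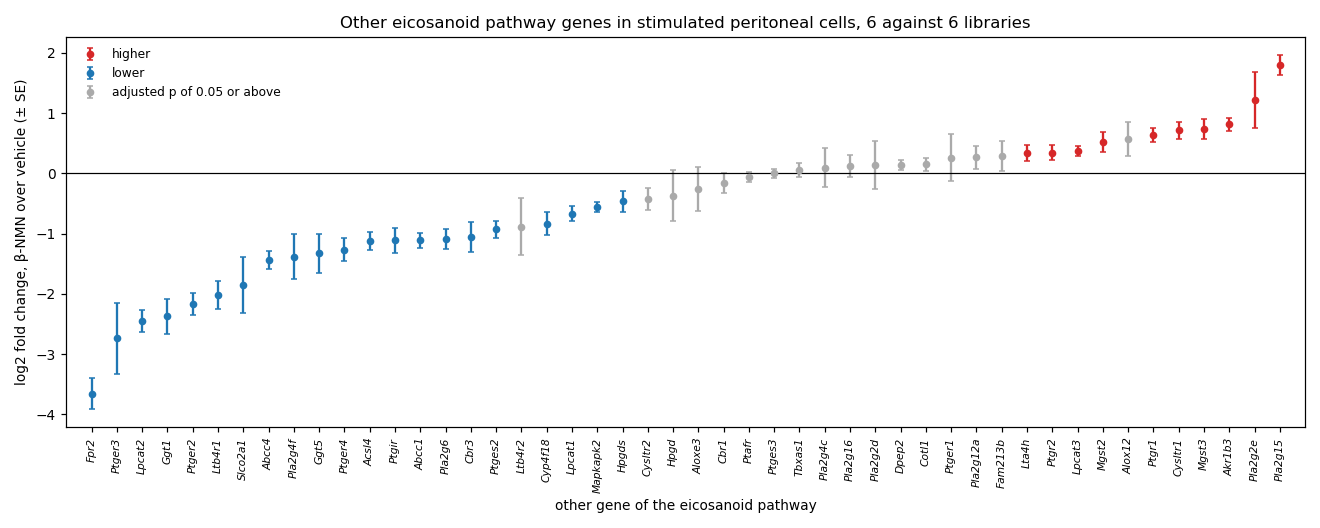
Log2 fold changes (β-NMN over vehicle, ± SE) of the 48 other eicosanoid pathway genes that passed the low-count filter in peritoneal cells, ordered by size. Red points mark the 10 genes that were higher and blue points the 21 that were lower at an adjusted p below 0.05, from Fpr2 at -3.66 to Pla2g15 at 1.80.

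In hearts after CLP, Ptgs2 and Ptges were again lower in β-NMN mice, but no member passed the adjusted threshold. Of the 10 members, 9 passed the low-count filter, and edgeR's quasi-likelihood test called 0 of them, as it did 0% of all 16245 genes tested. At an unadjusted p below 0.05 there were 4 members (Ptgs2, Ptges, Pla2g4a and Pla2g7), where 11.3% of all genes tested passed. DESeq2 called 3 members (Ptgs2, Ptges and Pla2g7) and 1.74% of all genes, and limma-voom called 0 members and 0.0185% of all genes. Vehicle and β-NMN hearts did not overlap for those 4 members, all lower, where 11.5% of all genes tested were lower and 11.6% higher without overlap. The median log2 fold change of the 9 members was -0.95, against -0.01 over all genes tested, and -0.52 without vehicle mouse 2.

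Some lists of cell markers also separated the heart groups, while the other lists overlapped between them. The neutrophil list summed to 21.0 to 36.1 CPM in vehicle and 13.9 to 15.4 CPM in β-NMN hearts, the platelet list to 14.0 to 29.6 and 7.49 to 13.03 CPM, and the list of resident peritoneal macrophage markers to 307 to 1224 and 255 to 302 CPM. The cardiomyocyte list was lower in vehicle hearts, at 32707 to 47494 CPM against 49486 to 53835 CPM. Nppa, alone on that list, went the other way (means of 1548 CPM in vehicle and 75.2 CPM in β-NMN hearts). The resident macrophage sum was carried by Prg4 (means of 505 and 126 CPM), Lbp and Selp, which other cells also express, whereas Gata6, Timd4 and Icam2 had log2 fold changes of -0.10, 0.11 and 0.20. Ranges of these 4 lists did not overlap, edgeR called 0 of their genes, and their part in the member values was not tested.

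Ptgs2 had 3.84, 13.1 and 6.58 CPM in the hearts of vehicle mice 1, 2 and 3, and 1.601, 0.739 and 0.605 CPM in those of β-NMN mice 1, 2 and 3. Every vehicle heart lay above every β-NMN heart, and each β-NMN heart held 39 to 43 reads. The log2 fold change was -3.04 (SE 0.58, edgeR adjusted p = 0.435) and -2.47 without vehicle mouse 2. Ptges had 4.46, 18.9 and 3.35 CPM in vehicle and 1.68, 1.48 and 1.66 CPM in hearts after β-NMN. Its log2 fold change of -2.48 (SE 0.67, edgeR adjusted p = 0.435) became -1.29 without vehicle mouse 2.

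Pla2g7 had the smallest SE of the members in the heart. It had 19.2, 20.8 and 17.3 CPM in vehicle and 10.7, 8.61 and 10.5 CPM in β-NMN hearts (log2 fold change -0.95, SE 0.14, edgeR adjusted p = 0.435), and the log2 fold change was -0.89 without vehicle mouse 2. Pla2g4a had 4.46, 12.3 and 5.03 CPM in vehicle and 3.17, 4.10 and 3.23 CPM in hearts after β-NMN. Its log2 fold change of -1.05 (SE 0.41, edgeR adjusted p = 0.435) was -0.44 without that mouse. An exact two-sided permutation test of 3 hearts against 3 gave p = 0.1 for each of Ptgs2, Ptges, Pla2g4a and Pla2g7, the smallest this design allows.

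Ptgis had the highest mean of the members in the heart per length, at 17.5 RPKM in vehicle and 5.54 RPKM in β-NMN mice. The vehicle mean rests on mouse 2 (36.1 RPKM, against 10.3 and 6.08 RPKM in mice 1 and 3), and the β-NMN range of 2.94 to 8.96 RPKM overlapped that of Alox5ap (3.87 to 4.58 RPKM). Its values were 26.4, 92.5 and 15.6 CPM in vehicle and 12.1, 23.0 and 7.55 CPM in β-NMN hearts, which overlapped, and the log2 fold change of -1.66 (SE 0.71, edgeR adjusted p = 0.435) became -0.57 without vehicle mouse 2. In that heart, Alox15 had 118 reads, against 0 to 6 reads in every other heart, and the mesothelial list of 5 summed to 100 CPM against 5.92 to 13.9 CPM. The part of these cells in its Ptgis, Ptgs2 and Ptges levels was not tested.

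The remaining members of the heart overlapped between groups. Ptgs1 had 14.4, 26.5 and 14.5 CPM in vehicle and 15.0, 10.7 and 11.8 CPM in β-NMN hearts, Alox5 ranged from 8.86 to 13.3 CPM in vehicle and from 11.3 to 13.3 CPM in β-NMN hearts, and Alox5ap from 5.94 to 9.14 and from 5.49 to 6.504 CPM. Ltc4s stayed below 1 CPM in all 6 hearts. Of the other 62 pathway genes, 52 were tested in the heart and edgeR called 0, with 14 at an unadjusted p below 0.05, to be read against the 11.3% of all genes. DESeq2 called 3 (1 higher and 2 lower) and limma-voom 0. The smallest p belonged to Fpr2 (log2 fold change -0.77), to Ltb4r2, the low-affinity leukotriene B4 receptor (-1.89), and to Acsl4 (-1.16).

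**Figure D4:**
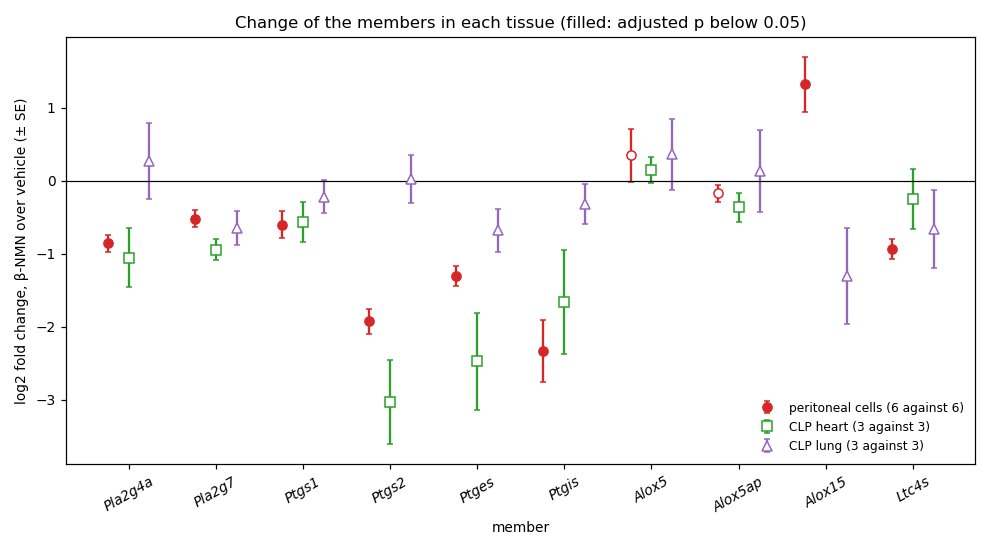
Log2 fold changes (β-NMN over vehicle, ± SE) of the 10 members in peritoneal cells (circles, 6 against 6), CLP heart (squares, 3 against 3) and CLP lung (triangles, 3 against 3), with filled symbols at an adjusted p below 0.05. Ptgs2 sits at -1.92, -3.04 and 0.03 in the 3 tissues, and Alox15 was not tested in the heart.

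In lungs after CLP, no member passed the adjusted threshold. All 10 passed the low-count filter, and edgeR called 0, as it did 0% of 17008 genes tested. At an unadjusted p below 0.05 there was 1 member (Pla2g7), where 1.77% of all genes tested passed. DESeq2 called 0 members and 0.0529% of all genes, and limma-voom 0 members and 0.0412% of all genes. Vehicle and β-NMN lungs did not overlap for 2 members, both lower (Ptges and Pla2g7), where 3.75% of all genes tested were lower and 4.47% higher without overlap. The median log2 fold change of the members was -0.27, and -0.15 without vehicle mouse 2.

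Some marker lists separated the lung groups too, while the other lists overlapped between them. The macrophage list summed to 1263 to 4337 CPM in vehicle and 5025 to 5465 CPM in β-NMN lungs, and the eosinophil list to 15.9 to 34.7 and 35.03 to 44.3 CPM. The fibroblast and smooth muscle list was higher in vehicle lungs (901 to 1479 CPM, against 656 to 888 CPM), as was the cardiomyocyte list (229 to 312 CPM, against 64.6 to 227 CPM). Lyz2, which lung epithelium also expresses, made up most of the macrophage sum (means of 2888 and 4885 CPM). The rest of that list went both ways. Adgre1, Csf1r and Mertk had log2 fold changes of 0.51, 0.45 and 0.09, and Cd68, Fcgr1 and Cd14 of -0.02, -0.30 and -0.55. Ear1 (means of 14.7 CPM in vehicle and 23.6 CPM in β-NMN lungs) and Siglecf (9.32 and 12.3 CPM) held most of the eosinophil sum. Prg2 had means of 1.74 and 1.86 CPM, and Epx, Ccr3 and Il5ra did not exceed 0.578 CPM in any lung. In these 4 lists edgeR called 0 genes, and their part in the member values was not tested.

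Ptges had 44.7, 34.5 and 34.7 CPM in the lungs of vehicle mice 1, 2 and 3 and 18.3, 19.6 and 33.1 CPM in those of β-NMN mice 1, 2 and 3. The gap between the groups was narrow, and the log2 fold change was -0.68 (SE 0.29, edgeR adjusted p = 0.969). Pla2g7 had 35.5, 28.2 and 35.4 CPM in vehicle and 20.1, 17.4 and 25.9 CPM in β-NMN lungs (log2 fold change -0.64, SE 0.24, edgeR adjusted p = 0.969). Ptgs2 had 8.37, 10.5 and 5.30 CPM in vehicle and 7.80, 9.01 and 7.78 CPM in β-NMN lungs, and its log2 fold change of 0.03 had a 95% interval of -0.62 to 0.68.

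Of the other lung members, Ptgis ranged from 132 to 228 CPM in vehicle and from 126 to 145 CPM in β-NMN lungs, and Ptgs1 from 75.2 to 98.2 and from 69.5 to 88.9 CPM. Vehicle mouse 2 gave the lowest Alox5 (5.20 CPM), Alox5ap (10.7 CPM) and Pla2g4a (3.32 CPM) and the highest Ltc4s (22.7 CPM) of the 6 lungs. Its library was the shallowest, and its macrophage list summed to 1263 CPM against 4004 to 5465 CPM in the other lungs. Without it the log2 fold changes of Pla2g4a, Alox5, Alox5ap and Ltc4s changed sign, and no member was called. Alox15 had 1.01, 0.722 and 1.82 CPM in vehicle and 0.305, 0.889 and 0.257 CPM in β-NMN lungs, which overlapped. Its log2 fold change of -1.30 (SE 0.65, edgeR adjusted p = 0.969) had the largest size of the lung members, and that of Ltc4s was -0.65 (SE 0.53). Of the other pathway genes, 52 were tested and edgeR called 0, with 1 at an unadjusted p below 0.05 and 0 by DESeq2 and by limma-voom. The smallest p belonged to Cbr3, a carbonyl reductase that acts on prostaglandins (log2 fold change -0.68), Ptgfr, the prostaglandin F receptor (0.95), and Ltb4r1 (-0.48).

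**Figure D5:**
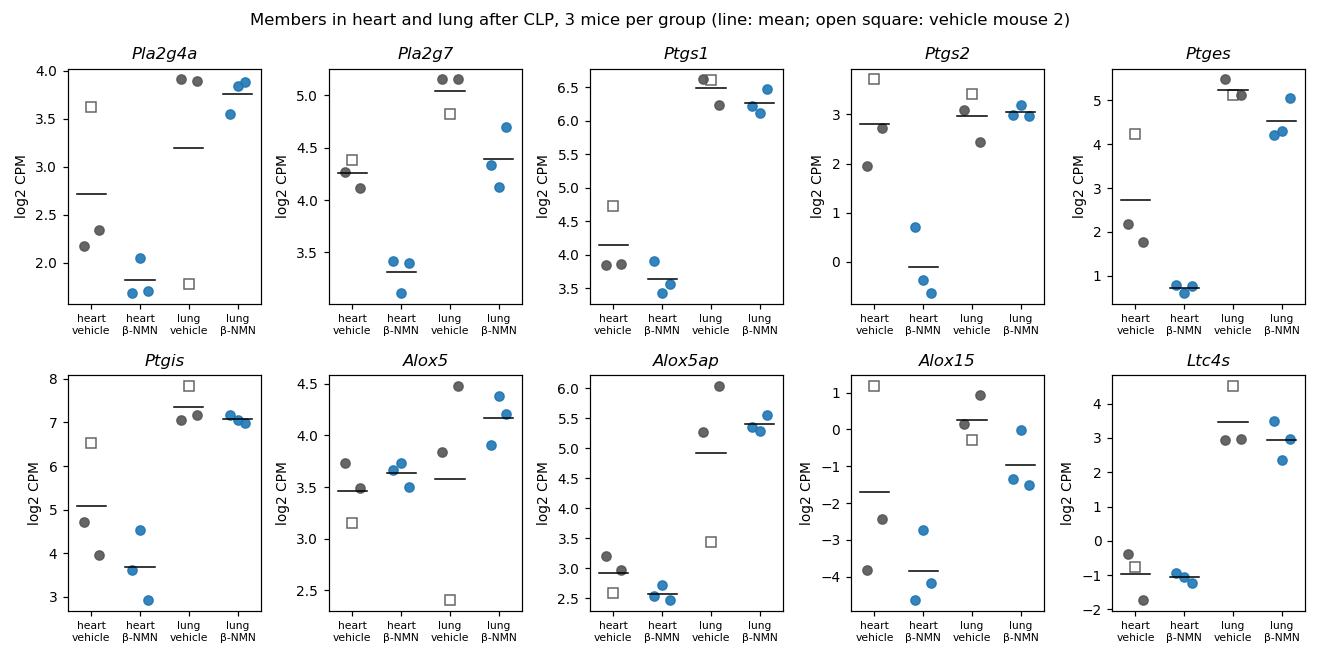
Levels of the 10 members in heart and lung after CLP as log2 CPM with a prior count of 2, with 3 mice per group as points, the mean as a line and vehicle mouse 2 as an open square. In the heart all 3 β-NMN mice lie below all 3 vehicle mice for Pla2g4a, Pla2g7, Ptgs2 and Ptges, and in the lung for Pla2g7 and Ptges.

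The organs also differed in which members they carried. Over both treatments, 6 members were higher in lung than in heart by edgeR's quasi-likelihood test over the 12 CLP libraries, 0 were lower and 4 did not pass. Across 18318 genes tested, 35.9% were higher and 28.9% lower in lung. Ltc4s was 12.8-fold higher in lung (log2 fold change 3.68, SE 0.37, edgeR adjusted p = 4.47e-06), Ptges 5.00-fold, Alox5ap 3.80-fold, Ptgis 3.71-fold and Ptgs1 3.45-fold. Without vehicle mouse 2 the log2 fold change of Ptges was 2.84 in place of 2.32, that of Ptgis 2.20 in place of 1.89 and that of Ltc4s 3.25. Ptgs2 was 1.85-fold higher in lung (edgeR adjusted p = 0.0329), and this call was lost without vehicle mouse 1 or 3 or β-NMN mouse 2 or 3, with log2 fold changes of 0.67 to 0.92 and edgeR adjusted p of 0.0581 to 0.135 in place of 0.88. Without vehicle mouse 2, Pla2g4a (log2 fold change 1.03) and Alox15 (2.96) also passed. For Alox5 the log2 fold change of lung over heart was -0.22, with a 95% interval of -0.79 to 0.34.

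Per length, Ptgis led in lung at a mean of 65.5 RPKM in vehicle mice, followed by Alox5ap (27.0 RPKM), Ptgs1 (23.3 RPKM), Ltc4s (12.5 RPKM), Pla2g7 (11.4 RPKM) and Ptges (9.65 RPKM). Ptgis lay above the next member in every vehicle lung, while the range of Alox5ap overlapped those of the 4 members after it, and Ltc4s, Pla2g7 and Ptges overlapped. Vehicle mouse 2 had 22.4 RPKM of Ltc4s against 7.48 and 7.56 RPKM in mice 1 and 3, where Ltc4s lay below Pla2g7 and Ptges. It had 7.53 RPKM of Alox5ap against 27.2 and 46.2 RPKM. The constitutive cyclooxygenase was thus more abundant than Ptgs2 (1.76 RPKM) in each vehicle lung, the reverse of the order in stimulated peritoneal cells. Peritoneal cells and organs came from separate tables normalised separately, so no level was tested between them.

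The difference between organs in the response to β-NMN was tested as an interaction over the 12 CLP libraries. edgeR called 0 members, as it did 0% of 18318 genes. DESeq2 called 1 member (Ptgs2) and 0.0764% of all genes, and limma-voom called 0 members and 0% of all genes. An unadjusted p below 0.05 was reached by 2 members, as by 4.35% of all genes. These were Ptgs2, whose effect in lung exceeded that in heart by 3.08 on the log2 scale (SE 0.67, edgeR adjusted p = 0.96), and Ptges, by 1.80 (SE 0.75, edgeR adjusted p = 0.96). Without vehicle mouse 2 these differences were 2.71 and 0.54.

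Reads of overlapping genes limit some members. In GENCODE M21, 6 members (Pla2g4a, Pla2g7, Ptgs1, Ptgis, Alox5ap and Ltc4s) overlap a gene on the other strand, and Ptges overlaps a processed pseudogene on its own strand. The strand setting of the counting was not given in the sources used, and reads of these partners cannot be told apart from those of the members. Ptgs2, Alox5 and Alox15 overlap no annotated gene.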

How the data were processed

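The deposited files are 2 tables of read counts per gene symbol, which the authors made from poly(A)-selected RNA by alignment to mm10 and counting per gene, without normalization. The submitters' processing notes name STAR 2.7.3a and featureCounts 2.0.0, and all 24 columns were matched to samples by title (0 were left over). From these counts a separate model per tissue was fitted in edgeR 4.0.16 (R 4.3.3), with filterByExpr at default settings and TMM scaling, and tested by the older form of the quasi-likelihood F-test. Benjamini-Hochberg adjusted p were taken over all genes tested, and genes below 0.05 were called. Intervals of log2 fold changes use the normal quantile of the SE and are narrower than those of the F-test. The organ difference was a contrast over the 12 CLP libraries.

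CPM use TMM-scaled library sizes and RPKM the union exon length of GENCODE M21 on GRCm38. Exact two-sided permutation tests compared mean log2 CPM (prior count 2). No pair of libraries was a duplicate. The members, the list of other pathway genes and the marker lists were chosen with earlier results of these data known. All members are named, and of the other genes at most 12 called in each direction by smallest adjusted p, or the 3 smallest p where none was called. Markers are given as lists with the first marker as example. Ptger1, Ptger3, Ptges3 and all other single markers were named beyond these rules, after their values were seen.

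Deviations of peritoneal libraries with the same number correlated between -0.17 and 0.13, so the numbers were not taken as pairs, and the same holds for hearts (0.07 to 0.24, not every pair over 0.1) and lungs (-0.52 to 0.30). Heart and lung of a mouse share the animal, with correlations of 0.06 to 0.17, and the mouse served as a block in an alternative fit of the organ contrasts. The alternatives were DESeq2 1.42.0, its size factors, no low-count filter, the newer quasi-likelihood form, limma-voom with quality weights (limma 3.58.1), the replicate block, each library left out in turn and a prior count of 0.5. The split by depth was added after seeing the data. The older quasi-likelihood test and DESeq2 were run on simulated counts with planted changes, for each tissue and for the interaction. The lung against heart contrast, limma-voom and the newer quasi-likelihood form were not. The exact test was checked on a fixed set of numbers alone. The sources of heart and lung samples name thioglycollate, whereas their titles and tissues give CLP, and 1 of 2 β-NMN hearts numbered 3 was taken as mouse 2 from the number of its lung.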

Additional observations from a re-analysis of the deposited data

Results flagged for a closer look

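Within groups of 6 peritoneal libraries, 64 sets of values of the members and named pathway genes were examined for a library whose gap to the nearest other, divided by the range of the group, exceeded the 95% critical value of Dixon. There were 7 such cases, and chance gives about 1 in 20 groups. All 7 lay in β-NMN libraries 5 and 6. Among the members, β-NMN library 6 had 4490 CPM of Ptgs2, against 2166 to 2760 CPM in the other β-NMN libraries, and 190 CPM of Pla2g4a, against 129 to 148 CPM. β-NMN library 5 had 11.3 CPM of Ltc4s, against 6.18 to 7.55 CPM. These values lie on the side of the vehicle group, and all remain below every vehicle library.

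Among the other pathway genes, β-NMN library 5 had 1.33 CPM of Pla2g2e, against 0.514 to 0.811 CPM, and 24.0 CPM of Ptgr1, against 17.7 to 20.1 CPM. β-NMN library 6 had 33.9 CPM of Akr1b3, against 42.5 to 46.4 CPM, and 0.605 CPM of Ltb4r1, against 1.30 to 1.71 CPM.

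Values of Pla2g6 lay on opposite sides in hearts and peritoneal cells. Every β-NMN heart lay above every vehicle heart (log2 fold change 0.17, not called, where 11.6% of all genes tested were higher without overlap), and every β-NMN peritoneal library lay below every vehicle library (-1.09). The difference between these effects was not tested.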

How the results depend on the processing

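In peritoneal cells the count of called members stayed at 8 under each of the tool, scaling and filter alternatives, was 6 within either depth class and ran from 7 to 8 with 1 library left out. With the replicate block it was also 8, and 28 of the other pathway genes were called in place of 31. The block ended no member's call. Within the depth classes Ptgs1, Pla2g7 and Alox15 lost their calls, Ptgs1 in both, and Alox5ap reversed to 0.088 in the deeper. DESeq2 called 3 members and 3 other pathway genes in place of 0 in hearts, and 1 member in place of 0 for the organ difference. The cause was not tested. In hearts 2 uncalled values reversed, Alox5 by limma-voom (-0.0020) and Ltc4s, which ran from -0.54 to 0.087 with 1 library left out. In lungs Ptgs2 reversed with the size factors of DESeq2 (-0.0038), and Pla2g4a (-0.054) and Alox5ap (-0.010) by limma-voom. With 1 lung left out, Ptgs2 ran from -0.18 to 0.26, Pla2g4a from -0.14 to 0.55, Alox5 from -0.0096 to 0.88, Alox5ap from -0.30 to 0.77 and Ltc4s from -0.97 to 0.053. Of the organ differences, Alox15 (-0.88) and Ltc4s (0.20) reversed by limma-voom. With 1 mouse left out Alox5 ran from -0.041 to 0.72, Alox15 from -0.87 to 3.78 and Ltc4s from -0.94 to 0.30, and all 3 reversed without vehicle mouse 2. For lung against heart the count of 6 ran from 5 to 8 with 1 mouse left out and was 9 by limma-voom. With 3 mice per group the exact test cannot pass 0.05.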
